A study of Mus musculus with 6 samples.

Results

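The homing and chemoattractant receptors described here are Ccr7, Cxcr5, Cxcr4, Ccr6, Cxcr3, S1pr1, S1pr3, S1pr4 and Gpr183, 9 of the 46963 gene names in a table of RNA-seq counts from mouse splenic B-cells. They were taken by name and not by a cut on measured values, although earlier results of these data were known when they were chosen. All 9 passed the filter of at least 10 counts in at least 2 libraries that 14600 genes passed. The cells were splenocytes depleted of CD43, a surface protein that most resting mature B-cells lack and that T-cells, myeloid cells and plasma cells carry. There were 6 libraries, 1 for each genotype in each state, and each came from a pool of 2 mice according to the labels. In all 6, the genes received between 9111974 and 21998587 counts.

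The wt mice were 129 mice. Eμ-deficient mice lack the Eμ enhancer, which lies in the intron behind the joining segments of the immunoglobulin heavy chain (IgH) locus, together with its matrix attachment regions, and 3′RR-deficient mice lack the 3′ regulatory region, a group of enhancers downstream of the last constant gene of that locus. Both mutant strains had a 129 background and carried their deletion in every cell, and the mice were 8 to 12 weeks old, of both sexes. The resting libraries (wt, Eμ-deficient and 3′RR-deficient, none with LPS) were made before stimulation according to the methods, whereas the labels give 2 days of culture for them too. The LPS libraries of the same genotypes followed 48 h with 5 μg per ml lipopolysaccharide (LPS), a cell wall glycolipid of Gram-negative bacteria that drives B-cells into division through Toll-like receptor 4. The protocol text of the labels gives the dose in mg per ml. With 1 library per genotype and state, no difference between genotypes within a state has a replicate check.

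All 9 receptors signal through heterotrimeric G proteins, most of them through the Gi class, and they place lymphocytes in tissues by movement along gradients of a ligand. CCR7 follows CCL19 and CCL21 into the T-cell zone, CXCR5 follows CXCL13 into the follicle, CXCR4 follows CXCL12 to the bone marrow and the red pulp, and CCR6 and CXCR3 answer CCL20 and the interferon-induced CXCL9, CXCL10 and CXCL11. S1PR1 and S1PR3 bind sphingosine 1-phosphate (S1P), which is abundant in blood and lymph: S1PR1 lets lymphocytes leave lymphoid organs and, with S1PR3, holds marginal zone B-cells at their place next to the blood. GPR183 (EBI2) binds oxysterols made from cholesterol and draws B-cells to the outer follicle.

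B-cell identity was checked with 8 marker genes (Cd79a, Cd79b, Ms4a1, Pax5, Cd22, Blk, Cr2 and Fcer2a), of which none was at 0 and whose summed level, in CPM (counts relative to the scaled library size), was 2479 to 3178 in the resting libraries and 1559 to 1931 in the LPS libraries. T-cell markers (16 genes) summed to 44.9 to 69.0 CPM in resting and 9.64 to 26.7 CPM in LPS libraries. Myeloid markers summed to 176 to 414 CPM and 28.2 to 46.6 CPM, dendritic cell markers to 72.4 to 146 CPM and 31.6 to 36.2 CPM (without Flt3, which did not pass the test, 55.2 to 115 CPM and 2.56 to 7.25 CPM), NK cell markers to 13.04 to 17.0 CPM and 0.352 to 4.55 CPM, and endothelial and stromal markers to 90.3 to 130.0 CPM and 49.1 to 63.3 CPM, nearly all of it from Pecam1 (1.73 to 3.27 CPM and 0.446 to 1.95 CPM without it). Erythroid markers reached 19873 CPM in the resting Eμ-deficient library, against 3396 and 3853 CPM in the other two resting libraries and 55.6 to 667 CPM with LPS. The summed levels of these lists were lower in each LPS library than in any resting library, as were the receptors that fell. The plasma cell list went the other way in 2 of the 3 pairs. With LPS 3 of its 6 genes (Prdm1, Xbp1 and Mzb1) were called higher, against 20.6% of all genes, and none lower, against 20.4%. The list summed to 601, 2266 and 653 CPM in the resting wt, Eμ-deficient and 3′RR-deficient libraries and to 861, 1974 and 1181 CPM with LPS. The part of such cells in the results below was not tested. In bulk RNA, fewer cells of a type and less RNA per cell cannot be told apart.

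Of the 9 receptors, 6 have a promoter window in the RefSeq table (GRCm38.p6), from 250 bases before to 50 bases after a transcription start. The windows of Cxcr4, S1pr3 and Gpr183, which fell with LPS, are shown beside that of S1pr4, which did not pass the test with LPS. S1pr4 was called between the mutants, a call that was lost under some alternative settings given below. The windows lie at chr1:128592250-128592549 (Cxcr4, minus strand), chr13:51408368-51408667 (S1pr3, plus strand), chr14:121965144-121965443 (Gpr183, minus strand) and chr10:81500088-81500387 (S1pr4, minus strand). Capitals mark CACCC, the core that KLF factors such as KLF2 bind, or GGGTG where it reads on the other strand:
Cxcr4: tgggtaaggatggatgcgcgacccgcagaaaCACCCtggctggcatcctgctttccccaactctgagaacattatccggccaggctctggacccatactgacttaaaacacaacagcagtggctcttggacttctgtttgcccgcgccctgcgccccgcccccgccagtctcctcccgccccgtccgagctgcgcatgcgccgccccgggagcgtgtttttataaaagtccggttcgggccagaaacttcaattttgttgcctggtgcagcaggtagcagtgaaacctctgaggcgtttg
S1pr3: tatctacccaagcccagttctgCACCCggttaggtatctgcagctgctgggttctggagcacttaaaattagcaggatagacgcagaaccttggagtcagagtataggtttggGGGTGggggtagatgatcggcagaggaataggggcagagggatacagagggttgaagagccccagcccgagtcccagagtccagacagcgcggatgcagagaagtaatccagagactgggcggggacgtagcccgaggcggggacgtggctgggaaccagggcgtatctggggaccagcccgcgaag
Gpr183: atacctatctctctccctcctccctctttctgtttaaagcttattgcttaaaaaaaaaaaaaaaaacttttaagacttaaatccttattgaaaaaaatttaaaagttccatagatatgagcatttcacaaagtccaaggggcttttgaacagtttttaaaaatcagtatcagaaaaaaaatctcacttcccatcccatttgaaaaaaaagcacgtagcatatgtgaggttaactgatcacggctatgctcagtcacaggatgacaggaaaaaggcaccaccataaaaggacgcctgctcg
S1pr4: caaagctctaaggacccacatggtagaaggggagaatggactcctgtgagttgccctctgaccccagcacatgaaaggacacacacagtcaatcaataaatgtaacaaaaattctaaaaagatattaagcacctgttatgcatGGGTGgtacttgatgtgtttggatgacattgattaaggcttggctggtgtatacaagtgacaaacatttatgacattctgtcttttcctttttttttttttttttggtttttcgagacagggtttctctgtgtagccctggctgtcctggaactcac

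The window of S1pr3 holds 2 CACCC matches, those of Cxcr4 and S1pr4 hold 1 each, and those of Gpr183, Ccr6 and Cxcr3 hold 0. CACCC was found on either strand in 57.5% of all 32851 promoter windows of that length, so that a match is common. A further 5 motifs were searched on both strands. The FOXO motif GTAAACA was in none of the receptors' windows and in 3.65% of all. The E-box CACGTG was also in none of them, and in 7.15% of all. The ETS core GGAAG, in 71.4% of all windows, matched 3 times in that of Cxcr3, 2 times and 1 time in the pair of Ccr6 windows, and 1 time in that of Gpr183. The NF-κB core GGGAC, in 51% of all, matched 4 times in the S1pr3 and 1 time in the Cxcr3 window. The octamer ATGCAAA, in 4.63% of all, matched 1 time, in one of the Ccr6 windows. None of the 6 motifs contains another. The Cxcr4 and S1pr3 windows are GC-rich (59.3% and 59.0%), with 20 and 14 CpG dinucleotides, whereas the Gpr183 and S1pr4 windows have 35.3% and 41.0% GC and 4 and 1 CpG, respectively. Receptors that fell therefore came with both kinds of window.

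With LPS, 5 of the 9 receptors fell and none rose. Ccr7, Cxcr4, S1pr1, S1pr3 and Gpr183 fell to between 14.4% and 21.1% of their mean resting level, and in each of them all 3 LPS libraries lay below all 3 resting libraries. Cxcr5, Ccr6, S1pr4 and Cxcr3 did not pass the test, and their LPS and resting libraries overlapped. Among all genes tested, 20.4% were called lower and 20.6% higher (edgeR quasi-likelihood test over the 6 libraries with genotype as a block, Benjamini-Hochberg adjusted p under 0.05), and 26.1% had all LPS libraries below all resting libraries. At an unadjusted p under 0.05 no further receptor passed, and the DESeq2 Wald test called 0 receptors higher. The median log2 fold change of the 9 receptors was -2.21, that of all genes tested -0.03.

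**Figure D1:**
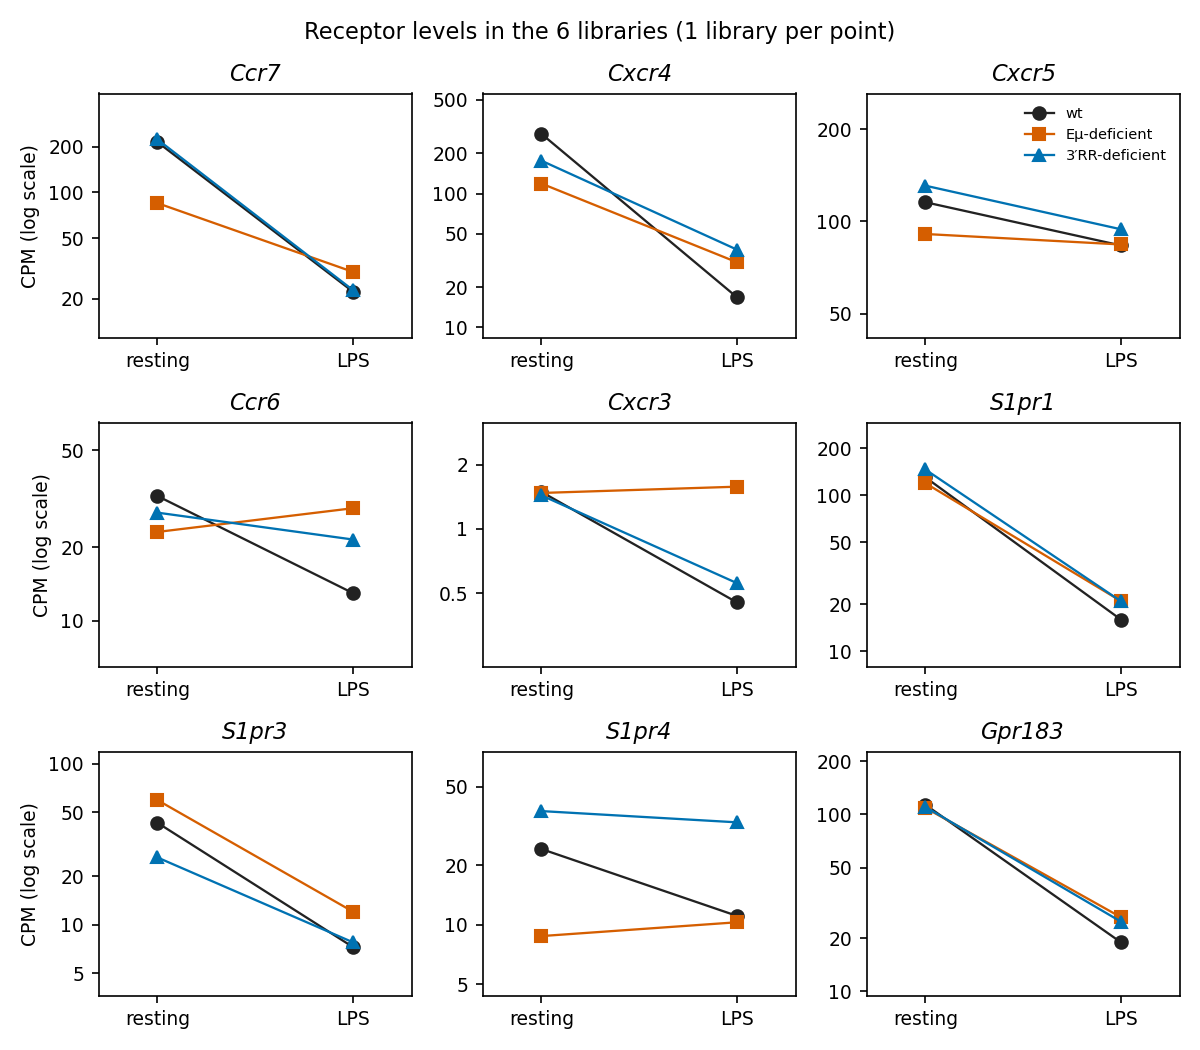
Level of each receptor in CPM on a log axis, resting and LPS, with 1 library per point and a line joining the libraries of a genotype. Ccr7, Cxcr4, S1pr1, S1pr3 and Gpr183 lie lower in every LPS library than in any resting library, whereas the Eμ-deficient pair of Ccr6 (23.1 and 28.9 CPM) runs the other way.

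Ccr7 (ENSMUSG00000037944, chr11:99144196-99155077, minus strand of GRCm38) had 214 CPM in the wt, 85.1 CPM in the Eμ-deficient and 223 CPM in the 3′RR-deficient resting library. With LPS it had 22.3, 30.1 and 22.8 CPM, respectively. The Eμ-deficient resting library was the low one, so that the pair of that genotype spanned the smallest change. In the fit Ccr7 fell by 2.70 on the log2 scale (SE 0.39, adjusted p = 0.000746), 6.49-fold, and 5.34% of all genes tested had a change as low.

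Cxcr4 (ENSMUSG00000045382, chr1:128588199-128592293, minus strand) showed the widest spread between genotypes in its LPS response. Its resting levels were 279.5 CPM in wt, 119 CPM in Eμ-deficient and 176 CPM in 3′RR-deficient B-cells, and its LPS levels were 16.8, 30.7 and 38.1 CPM. The wt library was the highest at rest and the lowest with LPS. Cxcr4 fell by 2.72 on the log2 scale (SE 0.42, adjusted p = 0.00105). The log2 ratio of LPS over resting was -4.06 in the wt pair, with a 95% interval from -4.22 to -3.90, -1.95 in the Eμ-deficient pair (-2.13 to -1.78) and -2.21 in the 3′RR-deficient pair (-2.37 to -2.05). These intervals cover counting error only, and whether the response differs between genotypes cannot be tested, since such a term leaves no residual degree of freedom.

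Cxcr5 (ENSMUSG00000047880, chr9:44511787-44561877, minus strand), the follicle receptor, had 116, 91.0 and 131 CPM in the resting wt, Eμ-deficient and 3′RR-deficient libraries and 83.4, 84.1 and 94.2 CPM with LPS. The 3′RR-deficient LPS library lay above the Eμ-deficient resting library, and the states overlapped. The fitted log2 fold change was -0.35 (SE 0.23, adjusted p = 0.246), with a 95% interval from -0.87 to 0.17. An exon of Cxcr5 overlaps Bcl9l on the opposite strand, which received 222 to 685 counts per library against 846 to 2729 for Cxcr5.

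Ccr6 (ENSMUSG00000040899, chr17:8236043-8257141, plus strand) had 32.4, 23.1 and 27.7 CPM at rest in the same order and 12.96, 28.9 and 21.5 CPM with LPS. Its pairs ran in opposite directions with intervals clear of 0 on either side: the log2 ratio of LPS over resting was -1.32 in wt (-1.54 to -1.11), -0.37 in 3′RR-deficient (-0.61 to -0.13) and 0.32 in Eμ-deficient B-cells (0.09 to 0.55). These intervals, too, cover counting error only. The fitted log2 fold change was -0.46 (SE 0.32, adjusted p = 0.276). Cxcr3 (ENSMUSG00000050232, chrX:101731535-101734269, minus strand), which effector lymphocytes use to enter inflamed tissue, was close to the detection limit with 5 to 30 counts per library. It had 1.49, 1.48 and 1.44 CPM at rest and 0.452, 1.58 and 0.557 CPM with LPS, and its fitted log2 fold change of -0.94 (SE 0.53, adjusted p = 0.185) has a 95% interval from -2.14 to 0.26.

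S1pr1 (ENSMUSG00000045092, chr3:115710433-115715072, minus strand), the egress receptor, had the largest fitted change of the 9. It had 131, 119.7 and 146 CPM at rest in wt, Eμ-deficient and 3′RR-deficient libraries and 16.0, 20.996 and 20.9 CPM with LPS. It fell by 2.78 on the log2 scale (SE 0.25, adjusted p = 8.46e-05), 6.89-fold. The ratios of the 3 pairs lay between -3.03 and -2.51 on the log2 scale.

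S1pr3 (ENSMUSG00000067586, chr13:51408639-51422797, plus strand), a receptor that marginal zone B-cells carry at a high level, had 43.0, 59.5 and 26.2 CPM at rest and 7.28, 12.1 and 7.80 CPM with LPS. The Eμ-deficient library was the highest in each state. S1pr3 fell by 2.21 on the log2 scale (SE 0.26, adjusted p = 0.000274). Its exons overlap the long noncoding RNA gene Gm32834 on the opposite strand.

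S1pr4 (ENSMUSG00000044199, chr10:81497747-81500132, minus strand), the S1P receptor of lymphoid and myeloid cells, stood apart from the other two. It had 24.2 CPM in the wt, 8.78 CPM in the Eμ-deficient and 37.6 CPM in the 3′RR-deficient resting library, and 11.1, 10.3 and 33.0 CPM with LPS. The 3′RR-deficient libraries were the highest in each state and the Eμ-deficient libraries the lowest. With LPS the Eμ-deficient library was near wt, at a log2 ratio of -0.11 with a 95% counting interval from -0.45 to 0.23. The fitted LPS change was -0.37 on the log2 scale (SE 0.29, adjusted p = 0.335), with a 95% interval from -1.03 to 0.29. Without the wt libraries it was 0.00.

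Gpr183 (ENSMUSG00000051212, chr14:121952551-121965195, minus strand, within Ubac2 on the opposite strand), the oxysterol receptor, was the receptor with the most even resting level after Cxcr3: 113 CPM in wt, 109 CPM in Eμ-deficient and 110.3 CPM in 3′RR-deficient B-cells. With LPS it had 18.9, 26.2 and 24.7 CPM. It fell by 2.27 on the log2 scale (SE 0.24, adjusted p = 0.000184), 4.81-fold.

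The 5 falls were called under each of the 13 alternative settings of the fit, and the other 4 receptors under none of theirs, which numbered 12 for Cxcr3 and 13 for the rest. The residual of the fit is the departure from a common LPS change in the 3 genotypes, with 2 residual degrees of freedom, and is not the spread between mice.

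**Figure D2:**
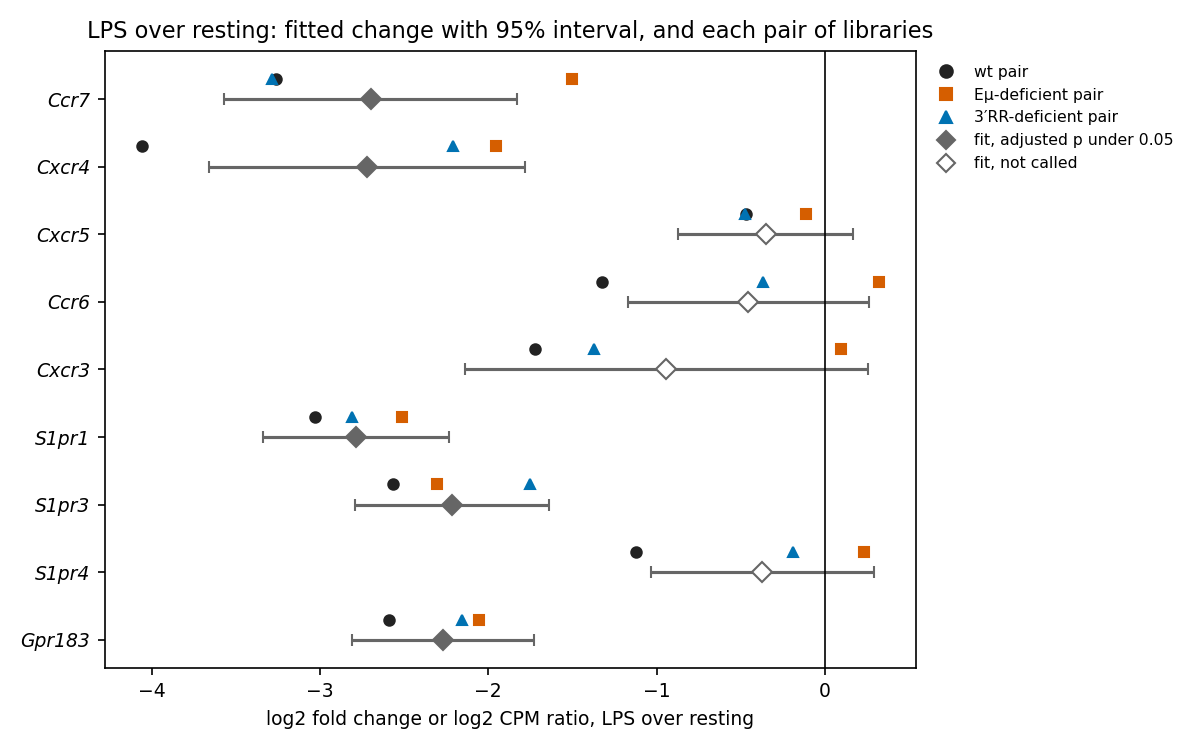
LPS over resting on the log2 scale: diamonds show the fitted change over the 6 libraries with its 95% interval, filled where the adjusted p is under 0.05, and the small symbols show the ratio of each pair of libraries. For the 5 called receptors every pair lies below 0, and the Eμ-deficient pair lies above 0 for Ccr6, S1pr4 and Cxcr3.

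To compare receptors with each other, levels were divided by the length of the merged exons (CPM per kb). Means and SDs are over the 3 genotypes with 1 library each, so that an SD holds differences between genotypes and is not a spread of replicates. At rest Cxcr4 (105.9 ± 45.0, SD, n = 3) and Ccr7 (88.0 ± 39.0) were on top, followed by S1pr1 (43.4 ± 4.41), Gpr183 (38.4 ± 0.795) and Cxcr5 (33.7 ± 6.03). Their ranges overlapped from each receptor to the next, except that the lowest S1pr1 library (39.31) lay just above the highest Gpr183 library (39.29). A gap separated Cxcr5 from Ccr6 (11.96 ± 2.01), S1pr4 (9.86 ± 6.04) and S1pr3 (9.62 ± 3.73), which overlapped among themselves, and Cxcr3 (0.849 ± 0.016) was lowest in each resting library.

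With LPS the order turned, and Cxcr5 ranked highest in all 3 libraries, at 26.2 ± 1.82 CPM per kb (SD over the 3 genotypes, n = 3), above the range of every other receptor. Cxcr4 (15.8 ± 5.98), Ccr7 (12.7 ± 2.20), Ccr6 (9.10 ± 3.44), Gpr183 (8.06 ± 1.34), S1pr4 (7.598 ± 5.39) and S1pr1 (6.34 ± 0.947) followed with ranges that overlapped from each to the next. S1pr3 (2.03 ± 0.590) and Cxcr3 (0.498 ± 0.360) were below them, each clear of its neighbour. S1pr4 ranked the third in the 3′RR-deficient LPS library and the seventh in the other two LPS libraries.

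**Figure D3:**
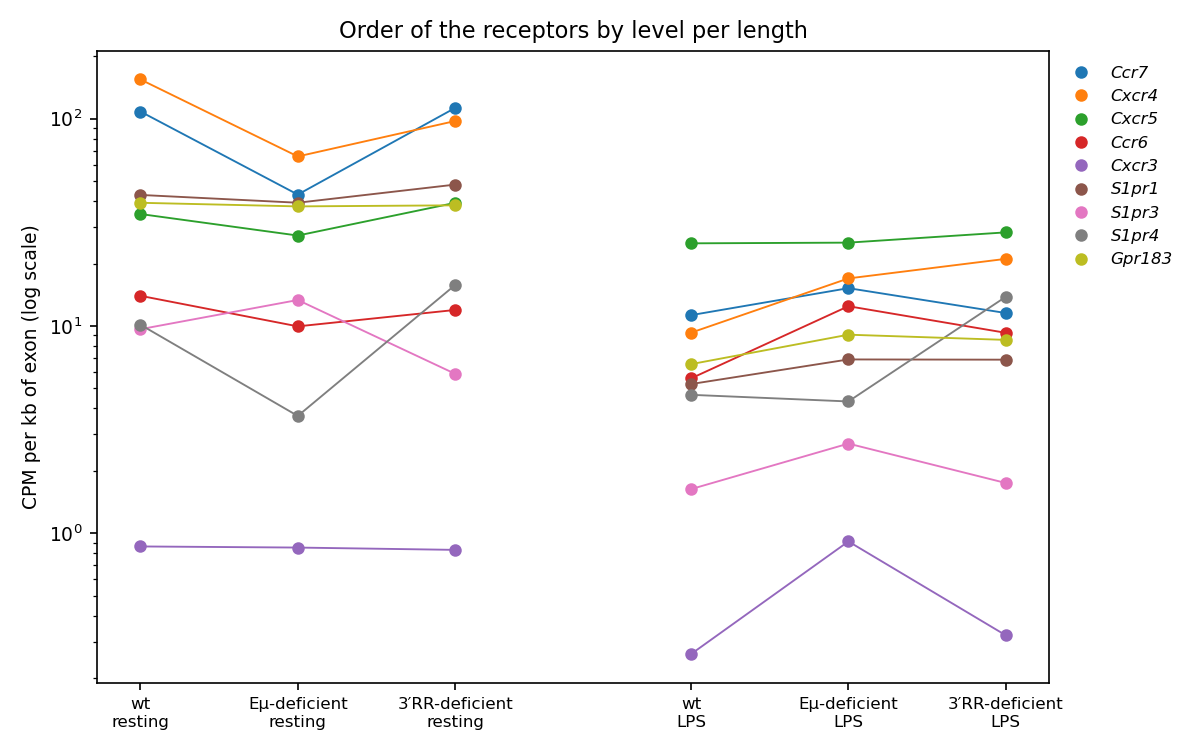
Level of each receptor per kb of merged exons, on a log axis, in the 3 resting and the 3 LPS libraries. Cxcr4 and Ccr7 are on top at rest, Cxcr5 is on top in every LPS library, and S1pr4 changes its place between the mutants.

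Genotype effects were asked first over both states, with culture state as a block, and then library by library. No receptor was called for Eμ-deficient against wt, where 1.16% of all genes were called, or for 3′RR-deficient against wt, where 0.747% were. At an unadjusted p under 0.05, 0 and 1 of the 9 receptors passed, respectively, against 8.37% and 5.64% of all genes. The receptor in the second comparison was S1pr4, at a log2 fold change of 1.05 (SE 0.35, unadjusted p = 0.0151, adjusted p = 0.558). Between the mutants, where 1.37% of all genes were called, S1pr4 was lower in Eμ-deficient than in 3′RR-deficient libraries by a log2 fold change of -1.87 (SE 0.37, adjusted p = 0.0472), lower in both states, and 1.07% of all genes had a change as low. This call was lost with scaling by the total count (adjusted p = 0.0836), with DESeq2 size factors (0.0504) and with at least 10 counts asked of every library (0.0666). S1pr3 was 0.92 higher in Eμ-deficient libraries (SE 0.31, adjusted p = 0.26), and passed only when the wt libraries were left out (adjusted p = 0.00288). These 3 comparisons share libraries and are not independent. Each library is a pool of 2 mice, so that a call compares pools, not single mice. The DESeq2 Wald test also called 0 receptors against wt in either mutant.

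In resting B-cells, 6 receptors were lower in the Eμ-deficient than in the wt library with a 95% counting interval clear of 0, and S1pr3 was higher, against 30.1% of all genes below and 27.2% above. The log2 ratio was -1.33 for Ccr7 (-1.43 to -1.24), -1.23 for Cxcr4 (-1.32 to -1.15) and -1.46 for S1pr4 (-1.77 to -1.17), -0.49 for Ccr6, -0.34 for Cxcr5 and -0.13 for S1pr1. That of S1pr1 lay near the median of 10529 genes in this pair (-0.08). S1pr3 had a ratio of 0.47 (0.32 to 0.61), which turned to -0.30 when libraries were scaled by spike-in RNAs. The intervals of Gpr183 and Cxcr3 held 0.

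Summed markers of B-cell subsets also differed between these libraries. The marginal zone list (Cr2, Cd1d1, Dtx1, Cd9, Plxnd1, Tm6sf1, Asb2 and Myof, none at 0) summed to 1307 CPM in the Eμ-deficient resting library, against 878 CPM in wt and 734 CPM in 3′RR-deficient libraries, and to 277 to 294 CPM with LPS. Without Cr2 it summed to 594 CPM, against 481.5 and 341 CPM, and Dtx1 and Plxnd1 were lower in the Eμ-deficient than in the wt resting library. None of the 8 genes was called for Eμ-deficient against wt, where 1.16% of all genes were. The follicular list (Fcer2a, Cd55 and Ighd, none at 0) summed to 195 CPM, against 611 and 605 CPM, and without the IgH gene Ighd to 117 CPM, against 216 and 410.2 CPM. The plasma cell sum of 2266 CPM, against 601 and 653 CPM, came mostly from Jchain, and without it was 575 CPM, against 487.5 and 485 CPM. Myeloid, dendritic cell and erythroid sums were also highest in this library. The part of these cells in the ratios was not tested.

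With LPS, no receptor was lower in the Eμ-deficient than in the wt library with an interval clear of 0, and 7 were higher, against 27.8% of all genes below and 18.6% above. The log2 ratio was 1.16 for Ccr6, 0.87 for Cxcr4 (0.65 to 1.09), 0.73 for S1pr3, 0.47 for Gpr183, 0.43 for Ccr7 and 0.39 for S1pr1. It was 1.80 for Cxcr3, from 17 against 9 counts, with an interval from 0.56 to 3.15. Ccr7, Cxcr4, Ccr6 and S1pr1 thus changed side between the states. In the same library the plasma cell list summed to 1974 CPM, against 861 CPM in wt (1178 and 760.1 CPM without Jchain), erythroid markers to 667 against 55.6 CPM, NK cell markers to 4.55 against 0.352 CPM and follicular markers to 85.4 against 178 CPM, and their part in these ratios was not tested.

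The resting 3′RR-deficient library was nearer to wt. Cxcr4 (log2 ratio -0.67, from -0.73 to -0.60), S1pr3 (-0.72, from -0.88 to -0.56) and Ccr6 (-0.23) were lower with intervals clear of 0, against 21.4% of all genes, and S1pr4 (0.64, from 0.47 to 0.81), Cxcr5 (0.18) and S1pr1 (0.17) were higher, against 19.4%. With spike-in scaling Cxcr5 and S1pr1 turned to -0.037 and -0.051. With LPS, 0 receptors were lower in the 3′RR-deficient library, against 30.9% of all genes, and 6 were higher, against 28.5%. These were S1pr4 (1.57, from 1.31 to 1.83), Cxcr4 (1.18), Ccr6 (0.73), S1pr1 (0.39), Gpr183 (0.39) and Cxcr5 (0.18). In this LPS pair the log2 ratios of 35 spike-in RNAs ran from -3.23 to 1.54 (SD 1.27), a spread that the counting intervals do not cover. The spike-in SD was 0.16 in the resting pair of 3′RR-deficient over wt. For Eμ-deficient over wt it was 0.48 at rest and 0.44 with LPS. For LPS over resting it was 0.78 in the wt, 0.13 in the Eμ-deficient and 0.63 in the 3′RR-deficient pair. Both comparisons of a mutant with wt under LPS are made against the same wt library.

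The ratios of the LPS libraries moved with the GC content of the transcripts. Across 10156 genes Spearman's rank correlation between GC content and the log2 ratio of 3′RR-deficient over wt was 0.67 with LPS, and the median ratio went from -0.92 in the decile of transcripts poorest in GC to 0.73 in the richest decile. In resting Eμ-deficient over wt the correlation was -0.48. For LPS over resting it was -0.30 in the wt, 0.03 in the Eμ-deficient and 0.18 in the 3′RR-deficient pair. Among the receptors Gpr183 has the lowest GC content (44.9%) and S1pr4 the highest (59.3%). After removal of this trend the LPS ratio of 3′RR-deficient over wt was 0.88 for S1pr4, 1.43 for Cxcr4 and 0.77 for Gpr183, and for Cxcr5 it was -0.13. The resting ratio of Eμ-deficient over wt was then -0.97 for S1pr4, -1.07 for Ccr7 and -1.34 for Cxcr4, and the fitted difference of S1pr4 between the mutants was -1.43 (adjusted p = 0.0379). For LPS over resting in the wt, Eμ-deficient and 3′RR-deficient pairs, Ccr6 then had ratios of -1.21, 0.32 and -0.41.

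**Figure D4:**
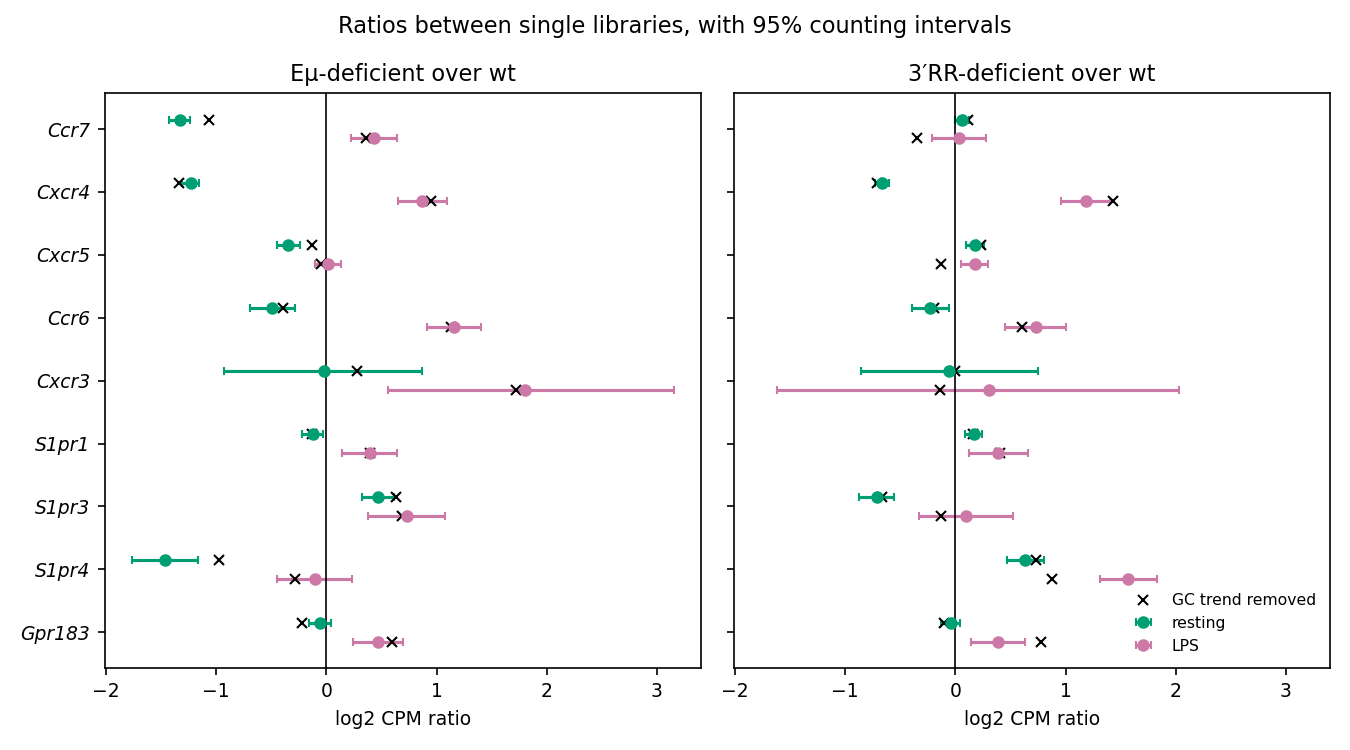
Log2 CPM ratio of each mutant library over the wt library of the same state, with 95% counting intervals and, as crosses, the ratio after removal of the trend on GC content. In the left panel Ccr7, Cxcr4, Ccr6 and S1pr1 lie below 0 at rest and above 0 with LPS, and in the right panel S1pr4 lies above 0 in both states.

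The ligands of these receptors stayed at or under 8.08 CPM in every library, and 3 of the 10 listed ligand genes had enough counts to be tested. Ccl19, Ccl21a, Ccl21c, Cxcl13, Ccl20 and Cxcl11 were below the filter, and Ccl21b was at 0 in every library. Cxcl9 was called lower (adjusted p = 0.00111), from 41, 43 and 95 counts in the resting libraries to 0, 3 and 0 with LPS. Cxcl12 was also called lower (adjusted p = 0.00921), from 32 counts over the 3 resting libraries to 0 in each LPS library. This was at least 8.06-fold lower against a floor of 3 counts over the LPS libraries together. Both passed the filter only through the resting libraries, which set the direction of their change, so that these calls are no independent support. Cxcl10 had a log2 fold change of 0.69 (adjusted p = 0.288). Of genes that make, export or break down S1P and oxysterols, 4 of 7 tested fell and none rose, against 20.4% of all genes lower and 20.6% higher, with a median log2 fold change of -1.25. They were Ppap2b, a lipid phosphate phosphatase (-2.87, SE 0.37, adjusted p = 0.000418), the S1P exporters Spns2 (-2.31) and Mfsd2b (-1.53), and Sgpl1, the S1P lyase (-1.25). The enzymes Ch25h and Cyp7b1, which make the ligand of GPR183 from cholesterol, had at most 3 counts in a library.

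Of other chemoattractant and lipid receptors, 18 of 29 tested fell (62.1%, against 20.4% of all genes), 1 rose and 10 did not pass, with a median log2 fold change of -1.61. Among those that fell, Cx3cr1, Ccr3, Xcr1, Ackr1, P2ry12, P2ry13 and P2ry14 had under 10 counts in every LPS library. Ccr2 (1, 18 and 1 counts with LPS) and Cmklr1 (3, 10 and 2) reached 10 in only 1 LPS library. All of these could pass the filter only with the resting libraries, which set the direction of their change. Their calls and this share are therefore no independent support. The genes named by their fitted change were Cx3cr1, the fractalkine receptor of monocytes (-5.71, SE 0.72, adjusted p = 0.000394), Ccr3, the eotaxin receptor (-5.25, SE 0.65, adjusted p = 0.000361), and Ccr2, the receptor of inflammatory monocytes (-5.07, SE 0.45, adjusted p = 8.47e-05), and Ackr1, an atypical chemokine receptor of erythroid and endothelial cells. Cx3cr1 had 43, 74 and 45 counts in the resting and 0, 1 and 1 in the LPS libraries, and Ccr3 had 30, 199 and 97 counts and 3, 1 and 1, so that the size of these falls is poorly set. Ackr1 went from 36 counts over the resting libraries to 0 in each LPS library, at least 9.07-fold lower against the same floor, with an adjusted p of 0.0108, a bound that does not place it among the others. Those 4 genes mark cells other than B-cells, whose lists were lower with LPS as well. Gpr55, a receptor of lysophospholipids chosen here after its value was seen because it alone rose, had a log2 fold change of 2.23 (SE 0.26, adjusted p = 0.000303).

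Of 18 tested genes that carry signals from these receptors, 4 fell, 2 rose and 12 did not pass the test, with a median log2 fold change of -0.51. The share that fell (22.2%) was near that of all genes (20.4%), and 11.1% rose, against 20.6%. Plcb2, a phospholipase C (-1.77, SE 0.24, adjusted p = 0.000584), Pik3r5, a regulatory subunit of the PI3-kinase that G proteins activate (-1.26), and Arhgef1, an exchange factor that the G12 and G13 proteins activate (-1.11), fell, and Pik3r6, the alternative subunit of that PI3-kinase, rose (1.06, SE 0.35, adjusted p = 0.0374), as did the G protein subunit Gnb1 (0.72, adjusted p = 0.0353), named here after its value was seen. Genes that switch the receptors off fell in 7 of 15 cases (46.7%, against 20.4% of all genes, median -1.32) and rose in 1, Rgs16 (2.07, adjusted p = 0.0391), also named after its value was seen. Rgs16 had 8, 3 and 2 counts in the resting and 22, 6 and 14 in the LPS libraries. It passed the filter only through the LPS libraries, which set its direction, so that its call is no independent support. The largest changes were those of Rgs1 (-5.72, SE 0.49, adjusted p = 8e-05) and Rgs2 (-5.24), which shorten G protein signals, of Adrbk2, a kinase that phosphorylates occupied receptors (-3.71), and of Arrb1, an arrestin (-2.22).

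The 3 listed genes known to set S1PR1 and CCR7 (Klf2, Cd69 and Foxo1) all fell with LPS (median -2.33), against 20.4% of all genes. Klf2, a transcription factor that drives S1pr1, fell by 3.55 on the log2 scale (SE 0.26, adjusted p = 5.3e-05), from 308, 166 and 426 CPM in the resting wt, Eμ-deficient and 3′RR-deficient libraries to 26.0, 13.7 and 38.2 CPM. Cd69, which binds S1PR1 and takes it off the surface, fell by 2.33, and Foxo1, a transcription factor upstream of Klf2 and Ccr7, by 1.31. Foxo1 had 197, 74.4 and 160.2 CPM at rest, lowest in the Eμ-deficient library as Ccr7 was. With LPS Foxo1 had 50.2, 46.5 and 66.1 CPM, again lowest in that library, whereas Ccr7 was highest there (22.3, 30.1 and 22.8 CPM). A link between these genes was not tested. Over all pathway lists, 38 of 75 tested genes fell (50.7%, against 20.4% of all genes) and 4 rose (5.33%, against 20.6%). Those that fell include the genes that passed the filter only through the resting libraries. Rgs16, among those that rose, passed it only through the LPS libraries. None of the 75 was called for 3′RR-deficient against wt, where 0.747% of all genes were. For Eμ-deficient against wt 1 of the 75 was called (1.33%, near the 1.16% of all genes), Ccr2, which was higher (log2 fold change 3.09, adjusted p = 0.0196) and is named here after its value was seen.

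**Figure D5:**
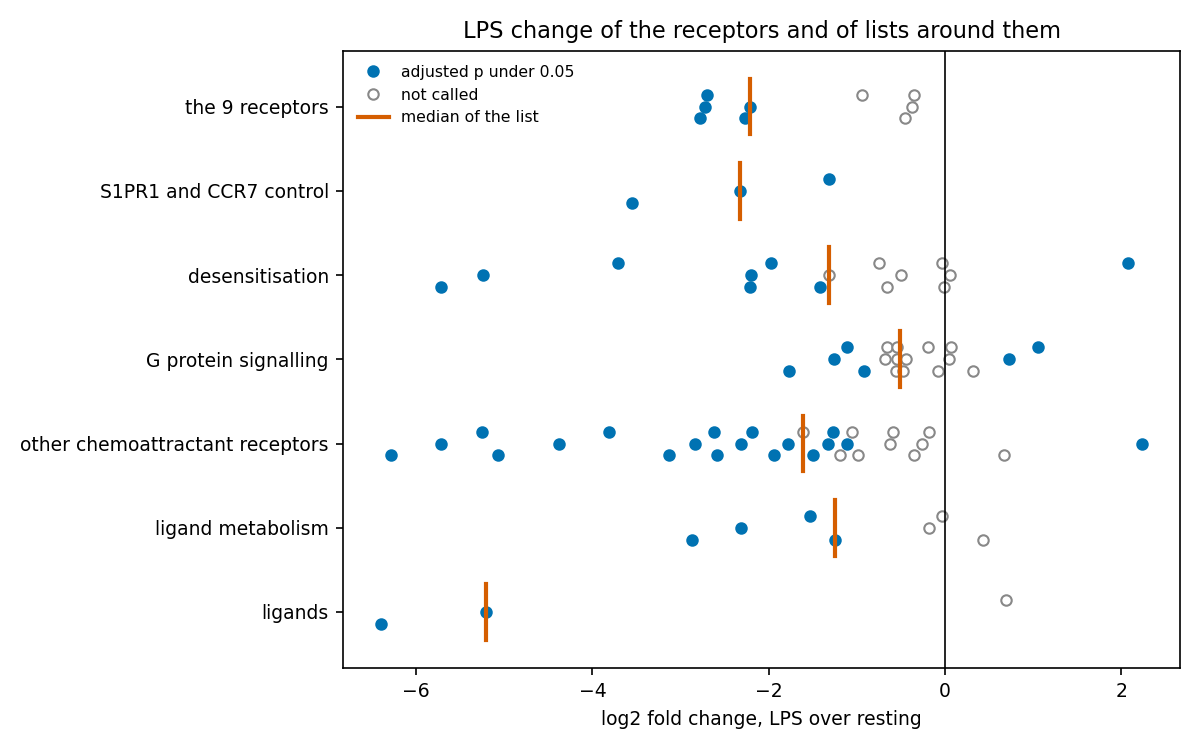
Log2 fold change of LPS over resting for the 9 receptors and for the tested genes of each list, filled where the adjusted p is under 0.05, with the median of each list as a bar. Most called genes lie below 0 in every list, and Gpr55, Rgs16, Pik3r6 and Gnb1 are the called genes above 0. Rgs16 passed the filter only through the LPS libraries.

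Among the receptors, S1pr1 and Gpr183 had the most similar patterns, with a root mean square difference of 0.27 in log2 CPM over the 6 libraries after each gene's mean was subtracted. Candidates were the 11173 other genes that reached 10 counts in all libraries. The nearest to Gpr183 were Kbtbd11 (0.085), Thap6 and E130102H24Rik, the nearest to S1pr1 were Tgif2 (0.17), Gch1 and Adck3, and the nearest to S1pr3 were Ank (0.13), Phxr4 and Trps1. The nearest to Ccr7 were Frat2 (0.22), Smad7 and Gm36955, and to Cxcr4 Hs3st1 (0.22), Neil1 and Acp5. For receptors with a small change, Cxcr5 had Traf3ip3 (0.047), B4galt7 and Slc35b2, Ccr6 had H2-T23 (0.11), Creb3 and Pik3cg, and S1pr4 had Slco4a1 (0.24), Hip1r and Ccm2. These are descriptions over 6 libraries that share the same large step between states.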

How the data were processed

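Raw counts per gene name of 6 libraries were used. As stated in the methods, the authors depleted ribosomal RNA, made stranded libraries, mapped paired reads of 150 nt to mm10 with STAR 2.4.0a and Ensembl release 77 models, and counted with featureCounts (Subread 1.4.6-p1) with strand option 1 and multi-mapping reads; the deposited values are these counts. The labels give 1 pool of 2 mice per library, the methods 4 mice and 2 pools per genotype.

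Of 47055 names, 92 spike-in RNAs (4.75% to 7.10% of counts) were left out. Libraries were scaled by TMM and tested with edgeR 4.0.16 (R 4.3.3; glmQLFit and glmQLFTest, genotype and state as additive terms, Benjamini-Hochberg over 14600 genes, threshold 0.05). Replicates being absent, p-values set an effect against a residual that is the departure from additivity. Within a state, ratios have exact conditional binomial (Clopper-Pearson) 95% intervals, which cover counting error only. On simulated counts with 200 changed genes, 98.1% of changes of log2 2 were found in the comparison of LPS with resting over 14224 genes, and 3.41% of calls were false. The simulated libraries had no genotype effect, no departure from a common LPS change and no GC trend. These shares therefore do not show how the fit behaves on the real libraries.

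Coordinates and exon lengths come from GENCODE M21 (GRCm38), which holds 44131 of the 46963 names, and promoters from RefSeq. The receptors and lists were chosen with earlier results of these data known. Some listed genes are not reported here and were left out of their lists' counts and sums. The named genes are the 9 receptors, up to 4 called genes with the largest LPS change per pathway list, and the 3 genes nearest in pattern to each receptor. Alternatives were other scalings and filters, the DESeq2 1.42.0 Wald test, removal of the GC trend, log2(CPM + 1), no genotype block and leaving out each genotype; spike-in scaling and leaving out the 3′RR-deficient LPS library were added after the data were seen.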

Additional observations from a re-analysis of the deposited data

Results flagged for a closer look

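Several receptors changed side between groups with 95% counting intervals clear of 0 on each side; with 1 library per group the differences were not tested. Ccr6 had LPS over resting ratios of opposite sign, with a log2 difference of 1.65 between the Eμ-deficient and the wt pair and of -0.69 between the 3′RR-deficient and the Eμ-deficient pair. For the ratio of Eμ-deficient over wt, the LPS value minus the resting value was 2.10 for Cxcr4, 1.76 for Ccr7, 1.65 for Ccr6 and 0.52 for S1pr1. For 3′RR-deficient over wt it was 1.85 for Cxcr4 and 0.96 for Ccr6. For Eμ-deficient over 3′RR-deficient it was 1.79 for Ccr7 and 0.69 for Ccr6, and with spike-in scaling Ccr7 no longer changed side, at an LPS ratio of -0.0014. The comparisons share libraries. After removal of the GC trend the differences against wt were 2.29 for Cxcr4, 1.43 for Ccr7, 1.52 for Ccr6 and 0.53 for S1pr1 in Eμ-deficient and 2.14 for Cxcr4 and 0.80 for Ccr6 in 3′RR-deficient libraries.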

How the results depend on the processing

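The 5 falls with LPS kept their call under all alternatives. The count of receptors called between the mutants went from 1 to 0 with total-count scaling, DESeq2 size factors or at least 10 counts in every library, and to 2 without wt. Without the filter, 607 genes were called for Eμ-deficient against wt, 339 for 3′RR-deficient against wt and 780 between the mutants, against 169, 109 and 200; with 10 counts in every library 75, 29 and 82, and 1907 rather than 2979 genes lower with LPS; by the DESeq2 Wald test 340, 178 and 366. With spike-in scaling 1453 rather than 3013 genes were higher with LPS (66.6% of calls lower, against 49.7%) and 167 were called for 3′RR-deficient against wt; this scaling moved the median log2 fold change of all genes by over 0.1, to -0.28, -0.36, 0.16 and -0.46 in the 4 comparisons. With total-count scaling 56.9% of LPS calls were lower. Leaving out libraries gave 1910 (without Eμ-deficient) to 3517 (without wt) genes higher with LPS, 504 to 550 for Eμ-deficient against wt (without both 3′RR-deficient libraries or that with LPS), 176 to 177 for 3′RR-deficient against wt and 365 to 2188 between the mutants.

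Signs turned in fitted results that were not called, and in 6 ratios between single libraries whose counting intervals lay clear of 0. Removal of the GC trend gave -0.063 for Ccr7 and -0.0071 for Cxcr3 in 3′RR-deficient against wt, -0.14 for Gpr183 between the mutants, and LPS ratios of Cxcr5 of -0.13 for 3′RR-deficient over wt and 0.080 for Eμ-deficient over 3′RR-deficient. Spike-in scaling gave -0.016 for Ccr6, -0.17 for S1pr1 and -0.11 for Gpr183 in Eμ-deficient against wt, -0.29 for Ccr6 and -0.42 for Gpr183 between the mutants, resting ratios of -0.30 for S1pr3 (Eμ-deficient over wt), -0.037 for Cxcr5 and -0.051 for S1pr1 (3′RR-deficient over wt), and an LPS ratio of -0.0014 for Ccr7 (Eμ-deficient over 3′RR-deficient). With libraries left out, the LPS change of S1pr4 ranged from -0.67 (without Eμ-deficient) to 0.00080 (without wt), and the genotype difference of Cxcr4 from -0.24 (without the 3′RR-deficient LPS library) to 0.21 in 3′RR-deficient against wt and from -0.45 to 0.039 (without the same library) between the mutants. The cause was not tested. Genotype pairs the resting and LPS libraries and was a block in the comparison of states, whereas no pairing by replicate number exists, since each group holds 1 library.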
